A study of Mus musculus with 4 samples.

Results

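The genes described here are the 3 members of the p53 family (*Trp53*, *Trp63* and *Trp73*), the MDM proteins that hold p53 in check (*Mdm2* and *Mdm4*) and 5 direct p53 targets (*Cdkn1a*, *Ccng1*, *Sesn2*, *Zmat3* and *Phlda3*). They were chosen by name, and all 10 were found among the 55820 loci of the deposited table. RNA sequencing was performed on whole testes of male C57BL/6J mice at postnatal day 10, with 2 libraries from control mice and 2 from Mps1sKO mice. In Mps1sKO mice, Stra8-cre removes *Mps1* (gene symbol *Ttk*), a kinase of the spindle assembly checkpoint, from germ cells entering differentiation and meiosis, while the somatic cells of the testis keep the gene. The labels call the other group only "control" and do not say whether these mice carried the floxed allele or Cre, and neither do they say how many mice went into a library.

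p53 is a transcription factor that is kept scarce by MDM2, a ubiquitin ligase that marks it for degradation, and by MDM4, a related protein that binds its activation domain. When DNA is damaged or a chromosome is lost in division, p53 escapes this control and switches on genes that stop the cell cycle, repair damage or start apoptosis. *Mdm2* is itself a p53 target, so the pathway limits itself. p63 and p73 bind similar DNA, and p63 is known for its role in the quality control of germ cells and in stratified epithelia. The study examined MDM2 protein in adult testes of this knockout. The question addressed here is what the mRNAs of this pathway did in young testes of Mps1sKO mice, at postnatal day 10.

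The p53 consensus in DNA is made of 2 copies of a 10-base element, called the p53 decamer here, which reads the same on both strands: 3 purines, C, 2 bases that are each A or T, G and 3 pyrimidines. RefSeq windows of 300 bases on GRCm38.p6, from 250 bases before to 50 bases after an annotated start, were held for 8 of the 10 genes, with 11 windows in total, and for neither *Trp63* nor *Zmat3*. At least 1 decamer was present in 4 of the 11 windows (36.364%), 1 for each of 4 genes, against 8.356% of all 32851 windows. The genes were chosen as members and targets of the p53 pathway, so this difference is not a test. Windows of the further p53 targets named below held a decamer in 8 of 33 (24.242%). The stretches below show each decamer of the 4 windows in capitals with the bases around it. Those of *Trp53*, *Mdm2* and *Ccng1* hold 1 decamer each, which is short of the 2 copies that make the consensus.
Cdkn1a, chr17:29090886-29090957, plus strand: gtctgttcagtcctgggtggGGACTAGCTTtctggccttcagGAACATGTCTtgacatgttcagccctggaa
Trp53, chr11:69580264-69580313, plus strand: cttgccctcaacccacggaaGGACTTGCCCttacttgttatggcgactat
Mdm2, chr10:117710915-117710964, minus strand: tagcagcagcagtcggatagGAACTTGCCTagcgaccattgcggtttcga
Ccng1, chr11:40755442-40755491, minus strand: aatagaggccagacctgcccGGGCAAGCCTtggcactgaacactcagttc

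Only the upstream of the 2 *Cdkn1a* windows held a full consensus, with 2 decamers separated by 12 bases and starting 73 and 51 bases before the start. A full consensus, with at most 13 bases between the decamers, was found in 24 of all windows (0.0731%) and in none of the 33 windows of the further targets. The 10 bases that directly follow the second decamer, tgacatgttc, differ from the consensus at 1 position. The windows of *Mdm4*, *Sesn2*, *Phlda3* and *Trp73* held no decamer, which says only that these letters are not in these windows. Such matches are a description of the sequence, and no binding was measured in these libraries.

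Counts per library summed to between 23311689 and 28607746. Levels within a gene are given as CPM, which are counts scaled to libraries of equal size (TMM), and fold changes are Mps1sKO relative to control from edgeR's quasi-likelihood test over 20561 loci with sufficient counts, all 10 genes among them. *Ttk*, the targeted gene, had 27.9 and 32.6 CPM in control and 13.03 and 12.2 CPM in Mps1sKO testes, with a log2 fold change of −1.26 and an adjusted p of 0.0461 from edgeR. Since these are whole testes, fewer cells of a type and less RNA per cell cannot be told apart. Of 10 germ cell markers, such as *Ddx4*, *Dazl* and *Stra8*, 9 were lower in Mps1sKO testes. Of the 10, 8 were lower with an unadjusted p below 0.05 from edgeR, against 5.37% of all tested loci. The summed level of the 10 was 1346 and 1615 CPM in control against 1217 and 950 CPM in Mps1sKO testes. All 10 Sertoli cell markers were higher, 2 with an unadjusted p below 0.05 from edgeR, against 3.92% of all tested loci called as higher. Their summed level was 4553 and 5060 CPM in control against 6157 and 5314 CPM in Mps1sKO testes. Most of this sum was *Clu*, whose groups overlapped at 2900 and 3586 CPM in control and 4399 and 3319 CPM in Mps1sKO testes. Every marker of both lists had counts. The part of these shifts in the results on the p53 pathway was not tested.

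At an adjusted p below 0.05 none of the 10 genes was called by edgeR, DESeq2 or limma-voom, a threshold passed by 0.0292% of all tested loci with edgeR. At an unadjusted p below 0.05, 1 of the 10 (*Sesn2*, higher) was called by each of these tools, where edgeR called 9.3% of all loci, 3.92% as higher and 5.37% as lower. Both Mps1sKO libraries lay above both control libraries for 5 of the 10 genes, against 20.3% of all tested loci, and below them for 0 of the 10, against 21.1%. *Trp73* is among the 5, on only 12 and 12 counts in control and 12 and 17 counts in Mps1sKO libraries before scaling. The log2 fold changes of the 10 genes lay between −0.07 and 0.42 around a median of 0.15, while the median over all tested loci was 0.00027.

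**Figure D1:**
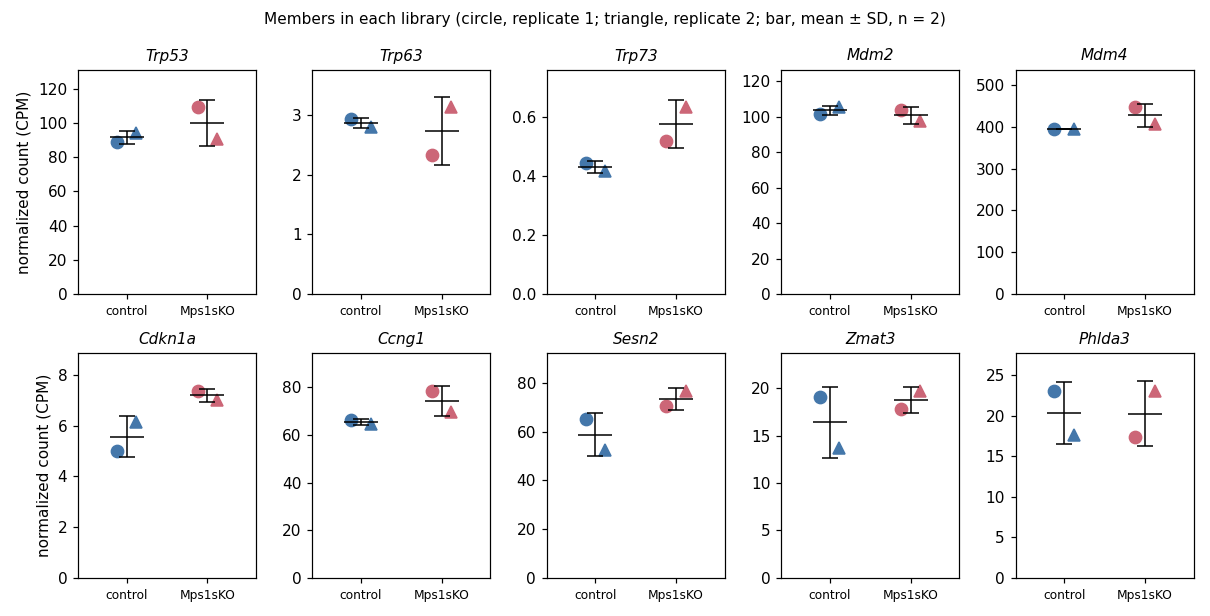
Normalized counts (CPM, linear axes starting at 0) of the 10 genes in each library, with circles for replicate 1, triangles for replicate 2, control in blue and Mps1sKO in red, and bars for the mean ± SD (n = 2). The groups are apart for *Trp73*, *Mdm4*, *Cdkn1a*, *Ccng1* and *Sesn2* and overlap for the other 5 genes. *Trp73* rests on 12 to 17 counts in a library.

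Per gene length, the genes fell into 3 ranges of level. The deposited FPKM values of the 4 libraries were 26.4 to 30.1 for *Mdm4*, 21.8 to 26.9 for *Trp53*, 19.1 to 20.6 for *Mdm2*, 18.3 to 22.3 for *Ccng1*, 15.0 to 22.03 for *Sesn2* and 11.1 to 14.8 for *Phlda3*. In this order, each gene's range overlapped that of its neighbour except for *Trp53* and *Mdm2*, and for *Sesn2* and *Phlda3*. *Cdkn1a*, at 1.40 to 2.07 FPKM, and *Zmat3*, at 1.19 to 1.72 FPKM, formed a lower range and overlapped each other. *Trp63*, at 0.276 to 0.373 FPKM, and *Trp73*, at 0.0747 to 0.114 FPKM, were the least abundant and did not overlap. The lengths behind these values join all annotated exons of a gene, 14798 bases from 14 annotated transcripts for *Mdm4*, and which transcripts were in use was not measured.

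**Figure D2:**
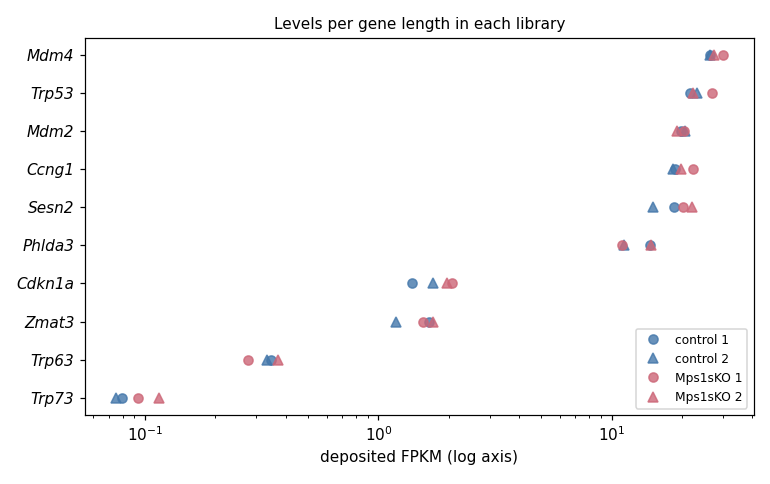
Deposited FPKM (log axis) of the 10 genes in each library, ordered by their mean over the 4 libraries. *Trp73* lies at the bottom with at most 0.114 FPKM and *Mdm4* at the top with at least 26.4 FPKM, and for most genes the 4 libraries lie close together on this axis.

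*Trp53* (ENSMUSG00000059552), on chromosome 11 from 69580359 to 69591873 (mm10), encodes p53. It had 88.8 and 94.4 CPM in control and 109 and 90.6 CPM in Mps1sKO testes. Mps1sKO replicate 1 was the highest of the 4 libraries, while replicate 2 lay between the control libraries. edgeR gave a log2 fold change of 0.13 with a standard error of 0.112 (adjusted p = 0.747) and a 95% interval from 0.912-fold to 1.31-fold. It was −0.015 without Mps1sKO replicate 1 and 0.26, with an unadjusted p of 0.040, without Mps1sKO replicate 2. No other gene shares annotated exon bases with *Trp53*, and its processed pseudogene *Trp53-ps* on chromosome 17, which matches it at 97.7% identity over 353 bases, had 9 to 19 counts in a library against 2391 to 2722 for *Trp53*.

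*Trp63* lies on chromosome 16 from 25683763 to 25892102, and 79 and 81 of its reads were counted in control and 54 and 84 in Mps1sKO libraries. These are 2.93 and 2.81 CPM in control and 2.33 and 3.13 CPM in Mps1sKO testes, so the Mps1sKO libraries enclosed both controls. Its difference of −0.07 on the log2 scale had a standard error of 0.228 (adjusted p = 0.949 from edgeR), and it was 0.13 without Mps1sKO replicate 1. Of 4 markers of basal epithelia, where p63 is abundant, *Krt5* had no count in any library, *Krt15* had at most 1, *Krt14* had 3 to 18 and *Krt17* had 13 to 17. Counts per gene do not separate the transcripts of *Trp63* that start with the activation domain from those that lack it, and the same holds for *Trp73*.

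*Trp73*, on chromosome 4 from 154056253 to 154140208, was close to the limit of detection, with 12 and 12 counts in control and 12 and 17 counts in Mps1sKO libraries. Scaled for depth these were 0.446 and 0.416 CPM in control and 0.518 and 0.634 CPM in Mps1sKO testes, and 3 counts, the limit for a count of 0, equal 0.104 to 0.129 CPM. The log2 fold change of 0.42 had a 95% interval from 0.693-fold to 2.59-fold (adjusted p = 0.771 from edgeR). A difference of the size seen for the other genes was not detectable for *Trp73* at this depth. An antisense gene, *Trp73os*, shares 5.06% of its exon bases but had no count in any library.

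*Mdm2* (ENSMUSG00000020184), on chromosome 10 from 117688875 to 117710758, encodes the ubiquitin ligase of p53. It is the gene of the pathway whose protein the study examined, in adult testes rather than at the age of these libraries. It had 102 and 105 CPM in control and 104 and 97.4 CPM in Mps1sKO testes. One Mps1sKO library lay between the controls and the other below them, so the groups overlapped. The difference on the log2 scale was −0.04 ± 0.0884 (standard error, adjusted p = 0.912 from edgeR), and the 95% interval of the fold change was 0.843 to 1.12. Leaving out single libraries moved it between −0.09 and 0.01.

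*Mdm4*, on chromosome 1 from 132959484 to 133030561, encodes the MDM protein that inhibits p53 without degrading it on its own. Its control libraries were nearly the same, at 393.76 and 393.73 CPM, and both Mps1sKO libraries were above them, at 447 and 408 CPM. *Mdm4* differed by 0.12 ± 0.0891 on the log2 scale (standard error, adjusted p = 0.696 from edgeR), with a 95% interval from 0.941-fold to 1.25-fold. The sign was the same when any single library was left out, with values from 0.05 to 0.18.

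Ratios of FPKM within a library do not depend on how libraries are scaled. The ratio of *Mdm2* to *Trp53* was 0.912 and 0.889 in control and 0.757 and 0.855 in Mps1sKO libraries, so both Mps1sKO values were lower. The ratio of *Mdm4* to *Mdm2* was 1.33 and 1.28 in control and 1.48 and 1.44 in Mps1sKO libraries, so both were higher. The ratio of *Trp53* to *Trp63* was 62.8 and 69.7 in control and 97.3 and 60.0 in Mps1sKO libraries, which overlapped, and that of *Cdkn1a* to *Trp53* was 0.0643 and 0.0740 in control and 0.0768 and 0.0881 in Mps1sKO libraries, which were both higher. An exact permutation test of 2 libraries against 2 cannot give a p below 0.333, so these ratios are given without a test.

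*Cdkn1a* (ENSMUSG00000023067), on chromosome 17 from 29090976 to 29100727, encodes the cyclin-dependent kinase inhibitor p21 that carries out cell cycle arrest downstream of p53. It had 5.01 and 6.14 CPM in control and 7.38 and 7.02 CPM in Mps1sKO testes. Both Mps1sKO libraries were above both controls, and the controls differed more from each other than the Mps1sKO libraries did. edgeR gave a log2 fold change of 0.37 with a standard error of 0.175 (unadjusted p = 0.0709, adjusted p = 0.567), with a 95% interval from 0.973-fold to 1.71-fold. Leaving out single libraries gave values from 0.23 to 0.52. With DESeq2 its unadjusted p was 0.164. *Cdkn1a* rests on 135 to 188 counts in a library, stretches of 150 to 165 bases of its transcripts occur at up to 96.3% identity in transcripts of 21 other genes, and an antisense locus with 4 or 5 counts covers 7.68% of its exon bases, so a part of its reads may have been assigned elsewhere or left out.

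*Sesn2*, on chromosome 4 from 132492032 to 132510501, encodes sestrin 2, which dampens mTORC1 signalling and oxidative stress and is also a target of the amino acid stress factor ATF4. It had 65.0 and 52.5 CPM in control and 70.3 and 76.7 CPM in Mps1sKO testes, so the groups did not overlap. On the log2 scale it was higher by 0.33 ± 0.122 (standard error, unadjusted p = 0.0294, adjusted p = 0.515 from edgeR), with a 95% interval from 1.03-fold to 1.52-fold. Control replicate 2 was the lowest library, and without it the log2 fold change was 0.18. The value was 0.26 without Mps1sKO replicate 2, 0.39 without Mps1sKO replicate 1 and 0.49 without control replicate 1.

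*Ccng1*, on chromosome 11 from 40748552 to 40755311, encodes cyclin G1, which recruits a phosphatase to MDM2. It had 66.5 and 64.7 CPM in control and 78.5 and 69.7 CPM in Mps1sKO testes, with the highest level in Mps1sKO replicate 1. The difference was 0.18 ± 0.0977 on the log2 scale (standard error, adjusted p = 0.606 from edgeR). It was 0.09 without Mps1sKO replicate 1 and 0.26, with an unadjusted p of 0.0408, without Mps1sKO replicate 2.

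The other 2 targets overlapped between genotypes. *Zmat3*, on chromosome 3 from 32334792 to 32366014, encodes an RNA-binding zinc finger protein, and it had 19.1 and 13.7 CPM in control and 17.8 and 19.7 CPM in Mps1sKO testes. Its log2 fold change was 0.20 (adjusted p = 0.743 from edgeR), which was −0.02 without control replicate 2 and 0.45, with an unadjusted p of 0.0344, without control replicate 1. *Phlda3*, on chromosome 1 from 135766119 to 135769136, encodes an inhibitor of AKT signalling, and it had 23.1 and 17.7 CPM in control and 17.4 and 23.1 CPM in Mps1sKO testes. Its log2 fold change was −0.0044 (adjusted p = 0.997 from edgeR), and its sign changed with DESeq2 and with limma-voom. *Sesn2*, *Zmat3* and *Phlda3* were all higher in control replicate 1 than in control replicate 2 and higher in Mps1sKO replicate 2 than in Mps1sKO replicate 1.

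**Figure D3:**
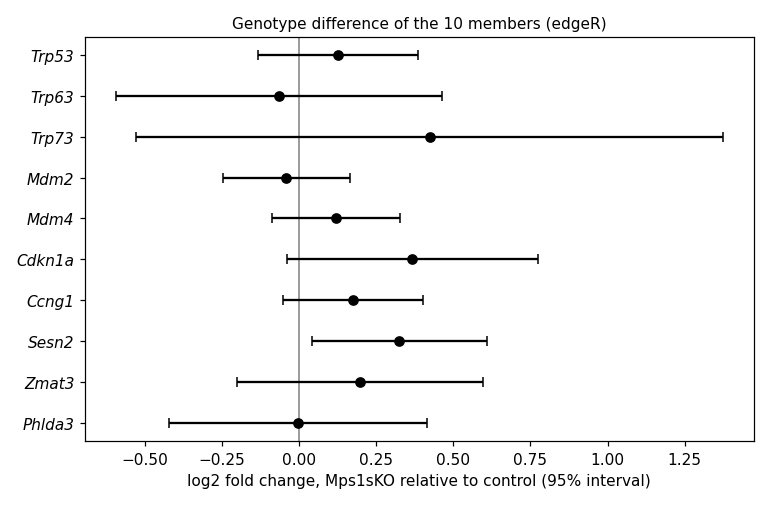
Log2 fold changes of the 10 genes, Mps1sKO relative to control, with their 95% intervals from edgeR. The interval of *Sesn2* alone does not include 0, that of *Mdm2* lies between −0.25 and 0.16, and that of *Trp73*, with the fewest counts, is the widest.

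**Figure D4:**
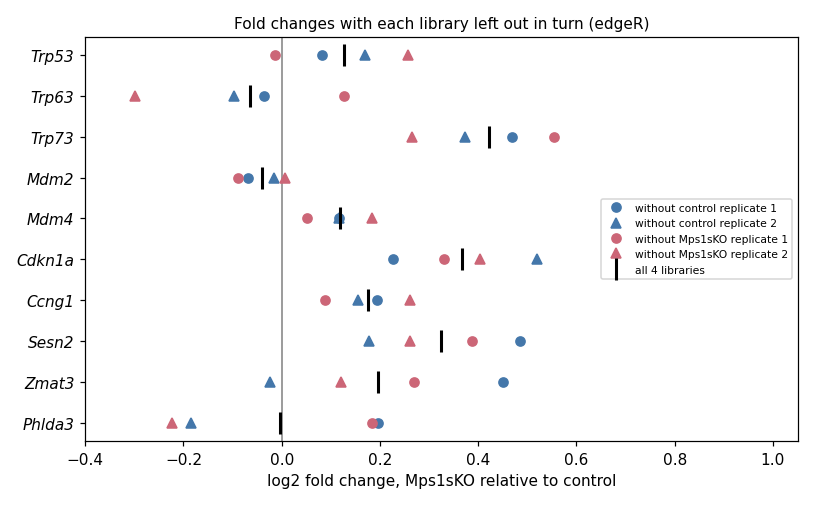
Log2 fold changes of the 10 genes from all 4 libraries (black bars) and after removal of 1 library at a time (blue for control, red for Mps1sKO). *Trp73*, *Mdm4*, *Cdkn1a*, *Ccng1* and *Sesn2* stay above 0 in each case, while *Trp53*, *Trp63*, *Mdm2*, *Zmat3* and *Phlda3* cross 0. The values of *Trp73* rest on 12 to 17 counts in a library.

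A further 31 p53 target genes were compared in 3 groups, and 30 of them had sufficient counts for a test. Of the 30, 14 were higher and 16 lower in Mps1sKO testes, and their median was −0.04 on the log2 scale. None passed an adjusted p of 0.05 with edgeR, DESeq2 or limma-voom, while 2 were higher and 1 lower at an unadjusted p below 0.05, which are 3 of 30 where 9.3% of all loci passed. Both Mps1sKO libraries lay above both controls for 8 of the 30 and below them for 6, against 20.3% and 21.1% of all loci.

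The 12 targets that act in apoptosis had a median log2 fold change of −0.08. None of the 12 had an unadjusted p below 0.05 with edgeR, against 9.3% of all loci. The pair with the highest values were *Eda2r*, a receptor of the TNF receptor family, at 0.31, and *Pmaip1*, which encodes the BH3-only protein NOXA, at 0.25. *Pmaip1* had 12.6 and 11.6 CPM in control and 13.5 and 15.3 CPM in Mps1sKO testes (adjusted p = 0.606 from edgeR). *Eda2r* was at 0.16 without control replicate 2 and at 0.46 without control replicate 1. *Pmaip1* was at 0.16 without Mps1sKO replicate 2 and at 0.33 without Mps1sKO replicate 1. The lowest were the death receptor *Tnfrsf10b* at −0.23 and *Perp*, a membrane protein gene, at −0.19, and for both the groups overlapped. Without Mps1sKO replicate 2 these values were −0.06 and 0.02, and without Mps1sKO replicate 1 they were −0.43 and −0.41.

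Of the 8 targets that act in arrest and in feedback on p53, 7 were tested. *Ptprv* and *Psrc1* were higher with an unadjusted p below 0.05 from edgeR. These are 2 of 7, where 3.92% of all loci were called as higher and 9.3% in either direction. *Ptprv*, a receptor tyrosine phosphatase gene that p53 activates in mice, had 199 and 183 CPM in control and 246 and 215 CPM in Mps1sKO testes, a log2 fold change of 0.27 (unadjusted p = 0.0309, adjusted p = 0.515 from edgeR). It fell to 0.17 (unadjusted p = 0.149) without Mps1sKO replicate 1 and to 0.21 (unadjusted p = 0.199) without control replicate 2. *Psrc1*, which encodes a protein of the mitotic spindle, had 7.58 and 7.52 CPM in control and 9.32 and 9.93 CPM in Mps1sKO testes, a log2 fold change of 0.35 (unadjusted p = 0.0451, adjusted p = 0.529 from edgeR). The unadjusted p of *Psrc1* was 0.124 with DESeq2 and 0.0566 to 0.157 when single libraries were left out. The highest value was that of *Sfn*, the gene of 14-3-3 sigma, at 0.37 (unadjusted p = 0.0687 from edgeR), which was 0.16 without control replicate 2 and 0.60 without control replicate 1. In the other direction, *Btg2*, an antiproliferative gene, was at −0.34 with 57.1 and 79.2 CPM in control and 53.8 and 54.0 CPM in Mps1sKO testes (unadjusted p = 0.0546 from edgeR). With DESeq2 its unadjusted p was 0.0400. The difference was −0.08 without control replicate 2 and −0.56 without control replicate 1. *Gadd45a*, a gene of the stress response, was at −0.18 with overlapping groups. It was at 0.02 without Mps1sKO replicate 1 and at −0.41 without Mps1sKO replicate 2. *Rprm* was removed by the filter, with 7 and 10 counts in control and 2 and 7 counts in Mps1sKO libraries.

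Of the 11 targets in metabolism and repair, *Gls2*, a glutaminase gene, was the 1 with an unadjusted p below 0.05 from edgeR. Of all loci, 9.3% passed. It had 3.86 and 3.78 CPM in control and 2.93 and 2.50 CPM in Mps1sKO testes, a log2 fold change of −0.49 (unadjusted p = 0.0407, adjusted p = 0.527 from edgeR), with an unadjusted p of 0.170 from DESeq2 and of 0.0394 to 0.169 when single libraries were left out. *Gdf15*, a secreted stress factor, was at −0.37 on 21 to 40 counts in a library, and its groups overlapped. Its value was 0.17 without control replicate 1 and −0.78 without control replicate 2. The highest values were 0.21 for *Ephx1*, an epoxide hydrolase gene, and 0.08 for *Ddit4*, an inhibitor of mTORC1. Without Mps1sKO replicate 1 *Ephx1* was at 0.11 and *Ddit4* at 0.35, and without Mps1sKO replicate 2 they were at 0.31 and −0.25.

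Of the 14 genes whose products stabilize or activate p53, 5 were higher and 9 lower, with a median of −0.05. Only *Cdkn2a* had an unadjusted p below 0.05 with edgeR, which is 1 of 14 where 9.3% of all loci passed. *Cdkn2a* encodes the MDM2 inhibitor ARF and, in another reading frame, the kinase inhibitor p16. It lies on chromosome 4 from 89274471 to 89294653 and had 31.7 and 39.5 CPM in control and 27.1 and 24.4 CPM in Mps1sKO testes. Both Mps1sKO libraries were below both controls, and the log2 fold change was −0.47 (standard error 0.134, unadjusted p = 0.00846, adjusted p = 0.494 from edgeR), or 72.2% of control. Its unadjusted p was 0.00566 with DESeq2. The log2 fold change ranged from −0.62 to −0.30 when single libraries were left out, with −0.30 without control replicate 2. When no filter on low counts was applied, the adjusted p of *Cdkn2a* from edgeR fell to 0.0326. That setting called 390 of 35262 loci at an adjusted p below 0.05, against 6 of 20561 with the filter. The 10 germ cell markers lay between −0.79 and 0.10 in the same libraries, with a median of −0.46, and their part in the value of *Cdkn2a* was not tested. *Cdkn2a* counts do not separate its 2 reading frames.

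*Chek2*, the gene of a checkpoint kinase that phosphorylates p53, was at −0.29 (unadjusted p = 0.0741 from edgeR). It was at −0.13 without Mps1sKO replicate 2 and at −0.45 without Mps1sKO replicate 1. *Hipk2* and *Usp10*, a kinase and a deubiquitinase of p53, were both at 0.25 with overlapping groups. *Hipk2* was at 0.01 without Mps1sKO replicate 2 and at 0.45 without Mps1sKO replicate 1. *Usp10* was at 0.04 without control replicate 2 and at 0.49 without control replicate 1. The 8 genes of other p53 inhibitors, 3 higher and 5 lower, lay between −0.19 for *Usp2*, a deubiquitinase of MDM2, and 0.13 for *Ppp1r13l*, which encodes iASPP. Without control replicate 2 these were −0.10 and −0.03, and without control replicate 1 they were −0.28 and 0.30. The median of the 8 was −0.04, and none of them had an unadjusted p below 0.05 with edgeR, against 9.3% of all loci. Between these lay the deacetylase gene *Sirt1* at −0.11 and the ubiquitin ligase gene *Huwe1* at 0.04.

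**Figure D5:**
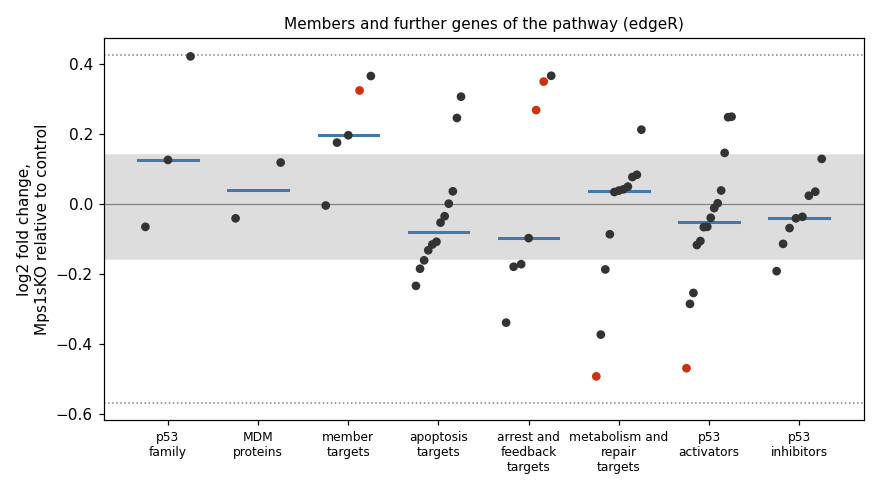
Log2 fold changes, Mps1sKO relative to control, of the tested genes in 8 groups of the pathway, with blue lines for the group medians and red points for an unadjusted p below 0.05 from edgeR. The grey band holds the middle 50% of all tested loci and dotted lines mark their 5th and 95th percentiles, and all genes shown lie within these lines, with the 5 targets among the 10 genes centred at 0.20 and the apoptosis targets at −0.08.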

How the data were processed

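RNA was extracted from whole testes, and NEBNext Ultra libraries were sequenced as 150-base paired-end reads on a NovaSeq platform. Per the labels, the submitters' processing notes list HISAT2 2.0.5, featureCounts, DESeq2 1.16.1 and the build mm10. The handling of strand and of reads with several matches is not given in the sources used here. The authors deposited raw counts per gene and FPKM values, which are counts divided by gene length and by a library size made from DESeq2 size factors. All 55536 annotated genes of the table had the coordinates of GENCODE M21.

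Genotypes were compared on the counts by the quasi-likelihood F test of edgeR 4.0.16, run in R 4.3.3 after filterByExpr and TMM, with p adjusted by Benjamini and Hochberg over all 20561 tested loci. FPKM served for levels between genes. Samples were grouped by their titles. P-values rest on the spread between the 2 libraries of a group, which may be technical. edgeR moderates this spread by that of other loci, with 5.64 prior against 2 residual degrees of freedom. Count limits cover counting error only. The genes and lists were chosen with earlier results of these data known. Named are the 10 genes, and from each further list those with p below 0.05, the 2 highest and 2 lowest, and those removed by the filter; other names were added after their values were seen. Alternatives were DESeq2 1.42.0, limma-voom (3.58.1), other scalings and filters, a replicate block and each library left out. Copies of transcripts were searched with BLAST 2.17.0 (at least 95% identity over 150 bases). The scripts were tested on simulated data.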

Additional observations from a re-analysis of the deposited data

How the results depend on the processing

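With 2 libraries a group, counts of genes at an unadjusted p below 0.05 depended on single libraries. In the order of the 10 genes, further targets lower, further targets higher and regulators, they were 1, 1, 2 and 1. When single libraries were left out, where the lone library is assumed to vary like the others, they ranged from 0 to 2, 0 to 4, 0 to 2 and 0 to 4, with 0 in each without control replicate 2. The replicate block gave 0, 0, 0 and 1. The labels do not say that a number marks shared animals, and deviations of same-numbered libraries correlated at −0.238. A crossed pairing, replicate 1 of a group with replicate 2 of the other, was added after this was seen. It gave 3, 4, 4 and 5, and 550 of all loci, 1 of the 10 genes among them, at an adjusted p below 0.05. No label gives this pairing, and a pairing chosen from the same data tends to raise the number of calls. Its calls are therefore not read as results. Library size alone gave 2 lower and 1 higher further targets, DESeq2 1 higher, at least 10 counts in every library 1 higher, and no filter 2 lower further targets and 4 regulators. The 1 lower further target called with DESeq2 was *Btg2*, while with edgeR it was *Gls2*.

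Of 110 fold changes of the 10 genes under the alternatives, 96 kept their sign and their side of an unadjusted p of 0.05, and 3 gained and 3 lost that side. The sign changed in 8, 6 of them without 1 library. Over the 4 fits without 1 library, *Trp53* ranged from −0.015 (without Mps1sKO replicate 1) to 0.26, *Trp63* from −0.30 to 0.13 (without Mps1sKO replicate 1), *Mdm2* from −0.088 to 0.0057 (without Mps1sKO replicate 2) and *Zmat3* from −0.023 (without control replicate 2) to 0.45. *Phlda3* ranged from −0.22 to 0.20, with a positive sign without control replicate 1 and without Mps1sKO replicate 1 (0.18), and it also changed sign with DESeq2 (0.0010) and limma-voom (0.0025). The median of the further targets stayed below 0 throughout. No scaling moved the median of all loci by over 0.1. At an adjusted p below 0.05 edgeR called 6 of all loci, DESeq2 37, limma-voom 3, edgeR with no filter 390, with at least 10 counts 3 and with the replicate block 2, and 17 to 199 without 1 library, with none of the 10 genes among the calls of these fits.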
